A study of Gossypium arboreum with 12 samples.

Results

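The comparison described here followed linted ovules of the diploid cotton *Gossypium arboreum* from fibre initiation to fibre elongation. Its members were the probe sets that changed between 0 dpa and 10 dpa (days post anthesis) in the fuzzy-linted line (*FL*), the wild type whose ovules bear fibre. The stage of each array was taken from its title. Of 21791 transcript probe sets on the Affymetrix cotton GeneChip, 843 (3.87%) changed, of which 641 (2.94%) rose and 202 (0.927%) fell. A probe set was called when its fold was at least 3 and its limma adjusted p (Benjamini-Hochberg over the 21791 probe sets) was at most 0.01.

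The series held 12 arrays in 4 groups of 3 biological replicates. The groups were ovules of the *FL* line at 0 dpa and at 10 dpa, and ovules of the fuzzy-lintless line (*Fl*, the mutant ANOI 1960) at the same stages. Both lines were grown in the field, flowers were tagged on the day of anthesis, and bolls were frozen in liquid nitrogen. The lines were near isogenic but not fully so, being derived from a single backcross, and under the electron microscope distinct elongating fibre cells were seen in the *FL* line alone. The RNA came from whole ovules, in which a larger share of fibre cells and more RNA per cell cannot be told apart. One label of linted 10 dpa replicate 1 named the other stage, while its title and source both gave 10 dpa.

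A cotton fibre is a single cell of the ovule's outer epidermis. Fibre cells bulge from the surface around anthesis and then elongate by turgor, while the primary cell wall is loosened and new wall and membrane material is delivered. Expansins and xyloglucan endotransglucosylase/hydrolases loosen or remodel that wall, sugar and nitrogen import feed the growing cell, and tubulin and actin steer the traffic within it. Over the same days the embryo, endosperm and seed coat of the ovule also grow, so whole ovules carry their transcripts too.

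All levels below are log2 values relative to each probe set's own median over the 12 arrays, as deposited. A level of 0 therefore marks the middle of the series, not absence, and the levels of different probe sets cannot be ranked. A change of 1 on this scale is a doubling, and the threshold fold of 3 is a change of 1.58. Gene names are those of the closest Arabidopsis homolog in the study's own annotation. That annotation covered transcripts listed because they differed between the lines on these arrays, and its lists for 10 dpa used the same linted arrays. The direction of a named list, and the gap between its linted and lintless medians, are therefore not independent evidence.

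On the deposited scale, large changes ran mostly upward, while small ones ran mostly downward, a balance that turned with the scaling as given below. At any fold, 9020 probe sets (41.4%) had an adjusted p of at most 0.01, of which 3822 were higher at 10 dpa and 5198 (23.9%) were lower, so that 42.4% of these changes were rises. Rises made up 63.4% of the changes of at least 2-fold (1322 against 764) and 76% of those of at least 3-fold. They made up 84.7% at 5-fold (348 against 63), 90.1% at 10-fold (154 against 17) and 95.2% at 30-fold (40 against 2). Past 100-fold there were 8 rises and 0 falls on this scale.

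**Figure D1:**
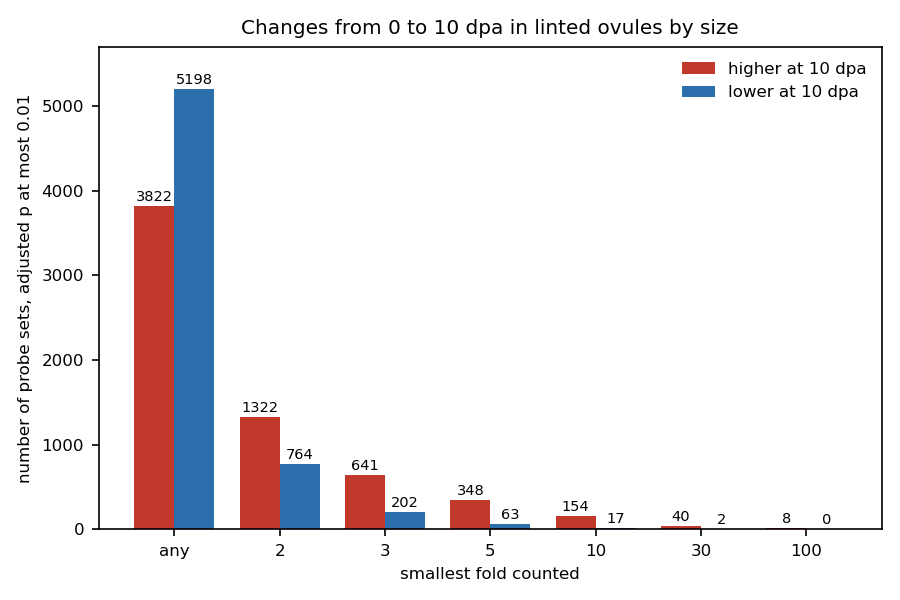
Number of probe sets (vertical axis) higher (red) or lower (blue) at 10 dpa than at 0 dpa in linted ovules with a limma adjusted p of at most 0.01, by the smallest fold counted (horizontal axis). Lower probe sets outnumber higher ones at any fold (5198 against 3822), and higher ones outnumber lower ones at every tier from 2-fold (1322 against 764) to 100-fold (8 against 0). All counts are on the deposited scale: centred on the hybridization controls, higher probe sets lead at any fold (7509 against 1819), and after repeated quantile normalization lower ones lead at 30-fold (11 against 8).

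Most transcripts moved little. The median change over all probe sets was -0.068, 90.4% of probe sets stayed within 2-fold, and 12771 (58.6%) had an adjusted p over 0.01. The central part of the distribution ran from -0.32 (25th percentile) to 0.18 (75th percentile), whereas its upper tail reached 2.85 at the 99th percentile and its lower tail -1.55 at the 1st percentile. The median rise was 2.39 (5.25-fold) and the median fall was -1.96 (3.90-fold). In all 641 rises the 3 arrays of 10 dpa lay above the 3 arrays of 0 dpa, and in all 202 falls they lay below them. The same separation was found upward in 22.9% and downward in 32.4% of all probe sets. The standard error of a change had a median of 0.0965 (n = 3 arrays per group).

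The balance depended on how the arrays were put on a common scale. When quantile normalization was repeated on the deposited values, 418 probe sets rose and 300 fell (58.2% rises). This step gave every array the same distribution of centred values. On the deposited scale the linted 10 dpa arrays had the widest spread (SD 0.489 to 0.501), so the step altered that feature as well and is not a neutral scaling. When the arrays were instead centred on the hybridization controls, 951 rose and 104 fell (90.1% rises), with the median of all probe sets shifted by 0.335. All 418 rises of the first setting were among the 641, and its 300 falls included all 202. The 951 rises of the second included all 641, and its 104 falls were among the 202. At any fold, repeated quantile normalization left the directions nearly even (3927 higher against 4079 lower), while the hybridization controls turned the balance upward (7509 against 1819). The tiers of large changes turned as well: after repeated quantile normalization there were 53 rises against 51 falls past 10-fold, 8 against 11 past 30-fold and 1 against 2 past 100-fold, whereas on the scale of the hybridization controls there were 195 against 11, 54 against 2 and 8 against 0. The hybridization controls, bacterial and phage transcripts added to the labelled sample, stood at 0.342, 0.547 and 0.387 on the 0 dpa arrays and at 0.227, 0.0209 and 0.0244 on the 10 dpa arrays. Their mean was 0.425 ± 0.11 (SD) at 0 dpa and 0.0909 ± 0.12 at 10 dpa, and the groups did not overlap (difference -0.335, two-sided exact permutation test p = 0.1, the smallest that 3 against 3 allows). The part of this offset in the counts was not tested beyond that centring.

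**Figure D2:**
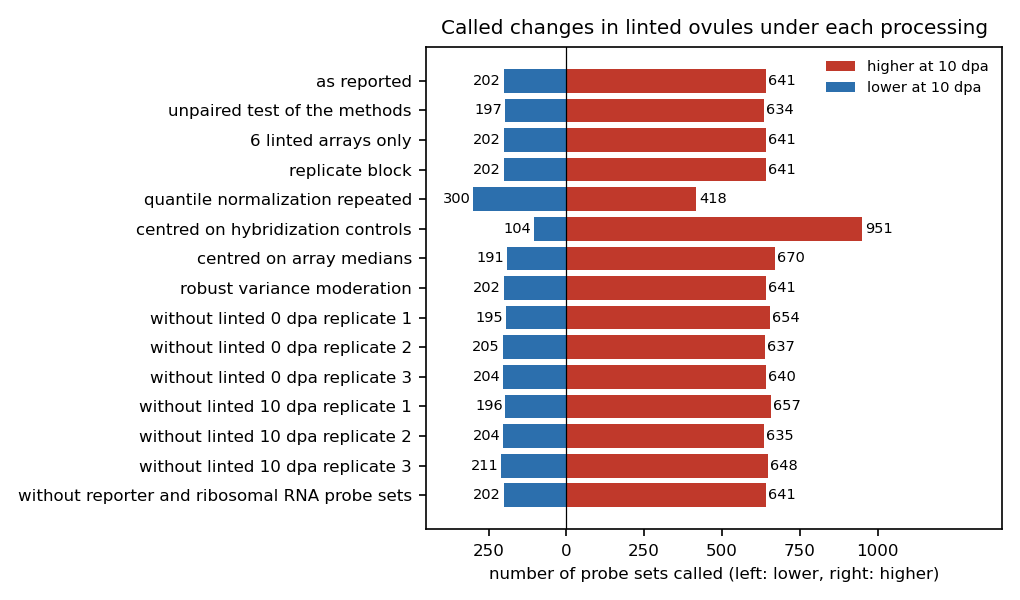
Number of probe sets called higher (red, right) or lower (blue, left) at 10 dpa in linted ovules under each way of processing the deposited values. Most settings lie near 641 and 202, whereas repeated quantile normalization gives 418 and 300 and centring on the hybridization controls gives 951 and 104.

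The largest rise and the largest fall both belonged to probe sets with no name. The probe set Ghi.5750.1.S1_s_at stood at -5.85, -4.74 and -5.10 on the 0 dpa arrays and at 4.46, 4.49 and 4.50 on the 10 dpa arrays, a rise of 9.71 ± 0.20 (SE; 837-fold, limma adjusted p = 4.2e-12). Ghi.5748.1.S1_s_at went from -4.16, -3.92 and -3.65 to 4.20, 4.20 and 4.18, a rise of 8.10 ± 0.116 (275-fold). Both also rose in lintless ovules, by 8.55 and 7.46. In the other direction, GhiAffx.53545.1.S1_at stood at 2.59, 2.69 and 2.82 at 0 dpa and at -3.40, -3.13 and -3.21 at 10 dpa, and fell by 5.95 ± 0.0832 on the log2 scale (61.7-fold, adjusted p = 4.3e-13). Ghi.8159.1.S1_s_at went from 2.35, 2.39 and 2.58 to -3.51, -3.27 and -2.35, and fell by 5.49 ± 0.244 (44.8-fold). Both also fell in lintless ovules (-5.15 and -6.91). After repeated quantile normalization the 4 changes were 7.37, 6.31, -7.91 and -7.69, so the order of the largest rise and the largest fall by size turned with the scaling. In each of the 4 the arrays of one stage stood far from those of the other, and the widest spread within a stage was that of Ghi.5750.1.S1_s_at at 0 dpa and Ghi.8159.1.S1_s_at at 10 dpa.

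Rises were unevenly named. Of the 234 probe sets with a homolog name, 134 rose and 4 fell. Thus 20.9% of the rises but 1.98% of the falls carried a name, as did 18 of the 40 rises past 30-fold and 2 of the 63 falls past 5-fold. Among the 21557 probe sets without a name, 507 rose and 198 fell. The class in which the study listed a transcript mattered: of the 197 listed as lower in lintless ovules at 10 dpa only, 146 rose (median 2.56), whereas of the 42 listed as higher in lintless ovules at 0 dpa only, 4 rose (median 0.18). The function of most falls is therefore not described here.

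The chip carries transcripts of several cotton species, and most called changes, by number, came from *G. hirsutum* designs. Rises made up 4.14% of the 9414 Ghi probe sets and 2.81% of the 6166 GhiAffx probe sets. They made up 1.39% of the 2949 Gra and 0.545% of the 3122 GraAffx probe sets, designed from *G. raimondii*. Among the small sets, 10 of 67 GarAffx probe sets (14.9%), designed from *G. arboreum* itself, and 10 of 33 GbaAffx probe sets (30.3%), designed from *G. barbadense*, rose. Falls made up 1.08% of the Ghi, 1.2% of the GhiAffx, 0.644% of the Gra and 0.224% of the GraAffx probe sets, and 0 of the GarAffx and GbaAffx probe sets were called lower by limma. Of the 36 reporter probe sets, for sequences that cotton does not carry, 0 were called by limma or by the unpaired test, 1 had an adjusted p of at most 0.01, 4 had an unadjusted p under 0.05, and changes ran from -0.44 to 0.28. Probe sets whose suffix (_s_at, _x_at or _a_at) marks probes shared between transcripts made up 47.6% of all, 67.7% of the rises (434) and 39.6% of the falls (80), so near-identical copies cannot be told apart in many of the rises. The 641 rises lay in 603 transcript clusters. Of the 173 rises with a sister probe set in the same cluster, 141 had every sister moving in the same direction, by any amount. A sister was called the same way for 72 of the 173 and the opposite way for 2. The share of sisters that agree over all probe sets was not computed.

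The 15 largest named rises ranged from 31.8-fold to 129-fold on the deposited scale (12.9-fold to 42.4-fold after repeated quantile normalization and 40.1-fold to 162-fold on the hybridization controls, all 15 called on each) and covered wall loosening, wall polysaccharide breakdown, defence-type proteins, nitrogen handling and auxin signalling. The largest was a D-mannose binding lectin (AT1G78860.1), a sugar-binding protein. It stood at -0.43, -0.05 and -0.51 at 0 dpa and at 6.58, 6.60 and 6.85 at 10 dpa, a rise of 7.01 ± 0.15 (129-fold, limma adjusted p = 5.2e-12). Its change in lintless ovules was 0.70 and did not pass.

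**Figure D3:**
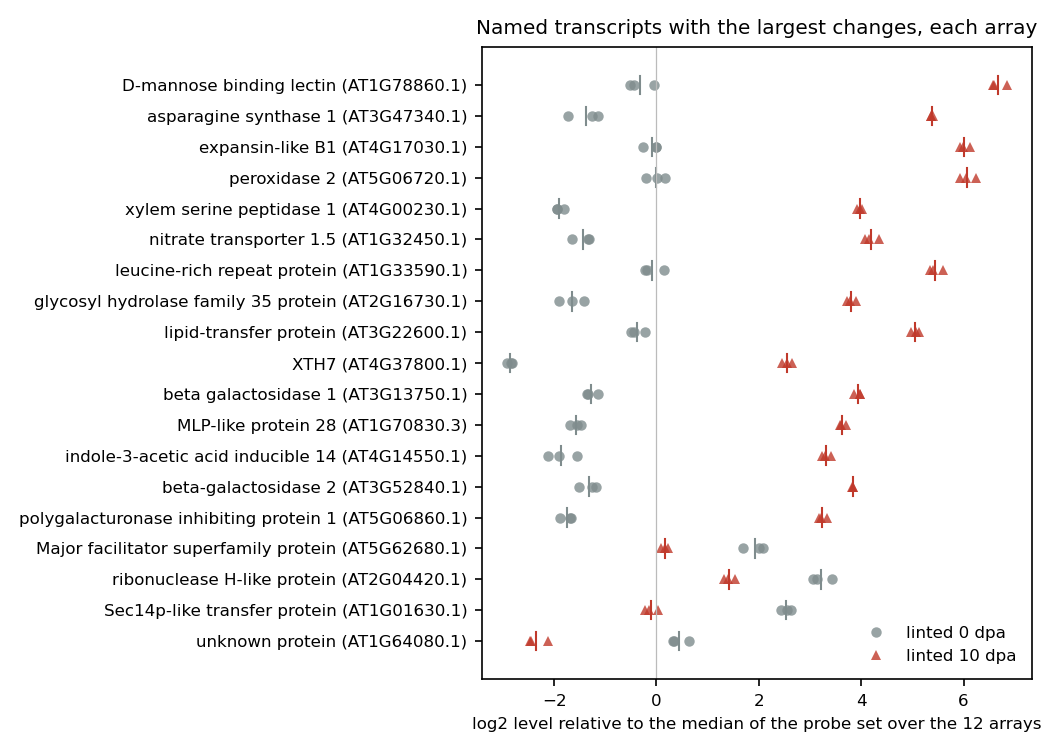
Levels (log2, relative to each probe set's median over the 12 arrays) of the 15 largest named rises and the 4 named falls on each linted array, 0 dpa in grey circles and 10 dpa in red triangles, with a vertical tick at each group's mean. The stages do not overlap for any of the 19, and the gaps run from 7.01 for the lectin down to -2.79 for the unknown protein AT1G64080.1.

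Most listed transcripts of the cell wall rose. Of 16 listed probe sets 12 rose and 0 fell, with a median change of 3.16, against 2.94% of all probe sets rising and a median of -0.07. Of the 270 probe sets in the study's annotation, from which the lists were drawn, 157 rose and 4 fell (median 2.09). That share is the nearer yardstick for this and the following lists. Expansin-like B1 (AT4G17030.1), of the expansin family that loosens walls, stood at 0, 0 and -0.26 at 0 dpa and at 5.98, 6.13 and 5.93 at 10 dpa, a rise of 6.10 ± 0.137 (68.7-fold, adjusted p = 6.8e-12). Its second probe set rose by 5.74. In lintless ovules these probe sets changed by -0.018 and 0.18, and the linted change exceeded the lintless one by 6.12 and 5.56.

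Xyloglucan endotransglucosylase/hydrolase 7 (XTH7, AT4G37800.1), which cuts and rejoins xyloglucan chains in the wall, rose on all 3 of its probe sets. The leading one went from -2.85, -2.82 and -2.92 to 2.55, 2.65 and 2.44, a rise of 5.41 ± 0.0923 (42.6-fold, adjusted p = 9.8e-13), and the others rose by 4.89 and 3.44. In lintless ovules the same 3 probe sets rose further, by 7.99, 7.67 and 6.30. XTH7 thus gained more in the line without lint. Beta-xylosidase 1, which trims xylose from wall polysaccharides, stood at -1.80, -1.73 and -1.61 at 0 dpa and at 2.82, 2.93 and 2.80 at 10 dpa, and rose by 4.56.

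The 3 beta-galactosidases, which remove galactose from wall polymers, all rose, with a median of 5.22 and a median of 3.16 in lintless ovules. The glycosyl hydrolase family 35 protein AT2G16730.1 went from -1.41, -1.66 and -1.91 to 3.77, 3.90 and 3.72 (5.46, 43.9-fold). Beta galactosidase 1 (AT3G13750.1) went from -1.13, -1.36 and -1.34 to 3.86, 3.97 and 3.98 (5.22, 37.2-fold). Beta-galactosidase 2 (AT3G52840.1) went from -1.19, -1.52 and -1.27 to 3.85, 3.82 and 3.84 (5.16, 35.8-fold). In all 3 the arrays of one stage lay close together against the gap between stages, and each enzyme rose in lintless ovules as well (3.82, 2.35 and 3.16).

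Some wall transcripts changed by less than the fold of 3. Expansin A1, another wall-loosening protein, went from -1.47, -1.75 and -1.41 to -0.15, -0.08 and -0.25, a change of 1.38 (2.61-fold, adjusted p = 2.7e-07) that missed the fold of 3. FASCICLIN-like arabinogalactan 7, a wall and membrane glycoprotein, changed by 0.71 in linted ovules but rose by 6.01 in lintless ones, a difference of -5.30. XTH32 changed by -0.60 and unknown seed protein like 1 by -1.27.

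The cytoskeleton list held 3 probe sets, all of which rose (median 2.95). Beta-6 tubulin, a subunit of microtubules, went from -0.24, -0.34 and -0.12 to 3.06, 3.18 and 3.49, a rise of 3.48 (11.1-fold). Profilin 5, which binds actin monomers, rose by 2.95. Actin depolymerizing factor 5, of a family that severs actin filaments, rose by 2.50. In lintless ovules the tubulin changed by -0.07, profilin 5 by 0.50 and the depolymerizing factor by 1.16, none of which passed.

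Nitrogen and amino acid metabolism gave 9 rises and 0 falls among 11 probe sets, with a median of 3.31 and a lintless median of 0.38. Glutamine-dependent asparagine synthase 1 (AT3G47340.1), which makes asparagine for nitrogen transport and storage, rose on all 5 of its probe sets. The leading one stood at -1.26, -1.15 and -1.73 at 0 dpa and at 5.40, 5.37 and 5.36 at 10 dpa, a rise of 6.75 ± 0.133 (108-fold, adjusted p = 3.3e-12). The others rose by 5.33, 5.18, 4.32 and 3.31. The leading probe set also rose in lintless ovules, by 2.25. Glutamate decarboxylase 4, which turns glutamate into gamma-aminobutyrate, rose by 4.41 in linted and by 3.28 in lintless ovules.

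Transport proteins were mixed, with 7 rises and 2 falls among 13 probe sets (median 1.84). Nitrate transporter 1.5 (AT1G32450.1), which in Arabidopsis loads nitrate into the xylem, went from -1.31, -1.66 and -1.34 to 4.16, 4.07 and 4.34, a rise of 5.63 (49.5-fold). Polyol/monosaccharide transporter 5 rose by 3.36 and a plasma membrane intrinsic protein (AT2G37170.1), of the aquaporin family that passes water, rose by 3.35. Pleiotropic drug resistance 4, an ATP-driven exporter of its class, rose by 3.13.

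Among 4 probe sets of sugar and trehalose metabolism 2 rose. The inhibitor of fructosidase C/VIF1 (AT1G47960.1), which blocks acid invertases and so the splitting of sucrose, went from -0.06, -0.53 and -0.25 to 4.31, 4.41 and 4.41, a rise of 4.66 (25.2-fold). The sugar transporter above was the other. Trehalose-phosphatase/synthase 9 and a haloacid dehalogenase-like hydrolase (AT5G65140.1) changed by 1.43 and 1.57, just short of the threshold change of 1.58.

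Lipid metabolism and transfer gave 5 rises and 1 fall among 7 probe sets (median 1.82). Acyl-CoA oxidase 4, an enzyme of fatty acid breakdown, rose by 2.43 and an alpha/beta-hydrolase (AT2G44970.2) by 2.18. A lipid-transfer protein (AT2G45180.1), of a family of small secreted proteins that bind lipids, rose by 2.00 and 1.95 on its 2 probe sets, and by 2.92 and 3.06 in lintless ovules. Outside that list, the lipid-transfer protein AT3G22600.1, whose match to the homolog was weak, went from -0.22, -0.49 and -0.44 to 5.12, 5.07 and 4.98, a rise of 5.44 (43.4-fold), with 0.52 in lintless ovules.

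**Figure D4:**
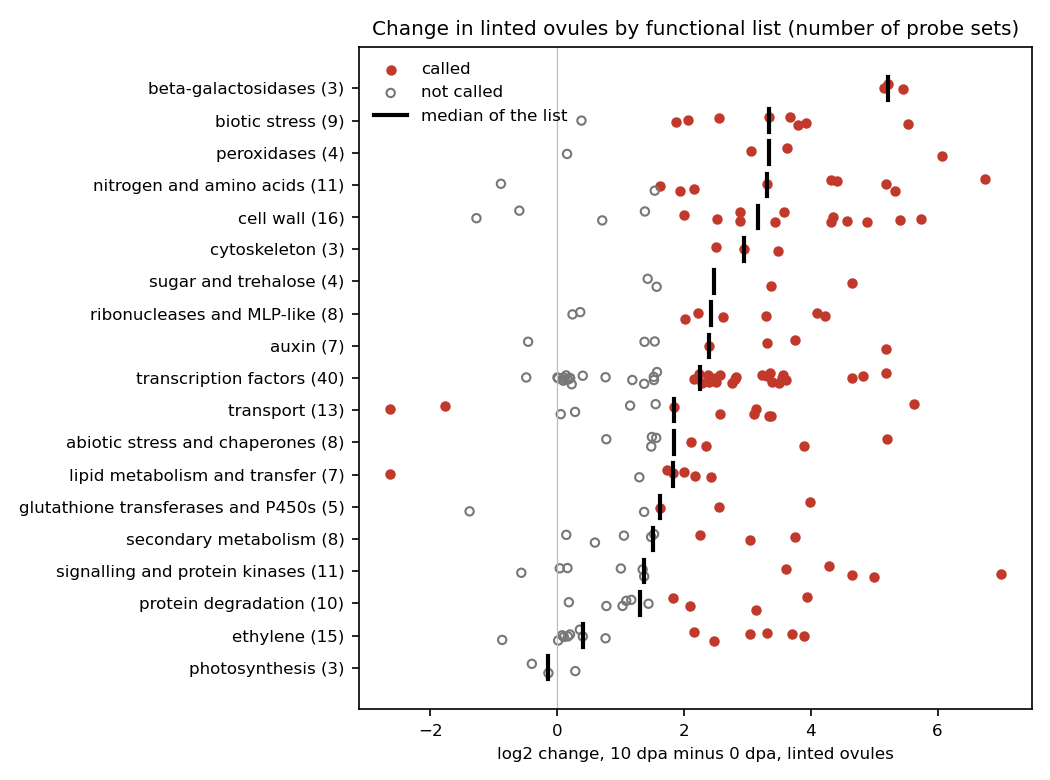
Change from 0 to 10 dpa in linted ovules (log2, horizontal axis) of every probe set in each functional list (vertical axis, number of probe sets in brackets), filled where called and open where not, with a black tick at the list's median. Medians run from 5.22 for the beta-galactosidases to -0.14 for photosynthesis, and called falls are seen in the transport and lipid lists alone.

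Peroxidases, which use hydrogen peroxide to oxidize phenolics and other wall substrates, gave 3 rises among 4 probe sets (median 3.34). Peroxidase 2 (AT5G06720.1) stood at 0.015, 0.17 and -0.20 at 0 dpa and at 6.05, 6.24 and 5.92 at 10 dpa, a rise of 6.08 ± 0.124 (67.5-fold, adjusted p = 3.8e-12), and its second probe set rose by 3.06. In lintless ovules they changed by -0.21 and -0.14. The peroxidase AT5G05340.1 rose by 3.62 on one probe set and changed by 0.15 on another.

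Biotic stress proteins gave 8 rises and 0 falls among 9 probe sets, with a median of 3.35 and a lintless median of 0.12. A leucine-rich repeat protein (AT1G33590.1) went from 0.15, -0.18 and -0.23 to 5.35, 5.40 and 5.60, a rise of 5.53 (46.3-fold), and its other probe sets rose by 3.92 and 2.54. A dirigent-like protein (AT1G64160.1), of a family that guides the coupling of lignan precursors, rose by 3.79. Pathogenesis-related 4, of a family of antifungal chitin-binding proteins, rose by 3.67. Polygalacturonase inhibiting protein 1 (AT5G06860.1), which blocks pectin-cutting enzymes of pathogens and was filed under signalling, went from -1.68, -1.70 and -1.88 to 3.18, 3.21 and 3.32 (4.99, 31.8-fold), and rose by 2.21 in lintless ovules.

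Signalling and protein kinases gave 5 rises among 11 probe sets (median 1.37). Besides the lectin and the polygalacturonase inhibitor, neither of which is a kinase by that name, the list held the protein kinase AT5G55560.1, which rose by 4.65. Mitogen-activated protein kinase 3, a kinase of stress and developmental signalling in Arabidopsis, went from -0.80, -0.31 and -0.38 to 3.70, 3.80 and 3.83 on its leading probe set (4.28) and rose by 3.60 on another. In lintless ovules these changed by 1.14 and 0.66 and did not pass.

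Abiotic stress proteins and chaperones gave 4 rises among 8 probe sets (median 1.84). MLP-like protein 28 (AT1G70830.3), of the major latex protein family, stood at -1.48, -1.69 and -1.55 at 0 dpa and at 3.59, 3.71 and 3.60 at 10 dpa, a rise of 5.21 (36.9-fold), and rose by 3.34 in lintless ovules. An adenine nucleotide alpha hydrolase-like protein rose by 2.34 and a late embryogenesis abundant protein, of a family that guards cells against drying, by 2.11. An HSP20-like chaperone changed by 1.56 and missed the fold of 3.

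Ribonucleases and MLP-like proteins gave 6 rises among 8 probe sets (median 2.42). MLP-like protein 423, a weak match, rose by 4.23 and 2.61 on 2 probe sets and ribonuclease 3 by 3.29. Protein degradation gave 4 rises among 10 (median 1.30). The subtilisin-like protease AT5G67090.1 rose by 3.94, the aspartyl protease AT1G03220.1 by 3.14, and 2 RING-type proteins, a class that includes ubiquitin ligases, by 2.10 and 1.83. Xylem serine peptidase 1 (AT4G00230.1), which shares a cluster number with the subtilisin-like protease, went from -1.82, -1.94 and -1.94 to 3.98, 3.92 and 4.02, a rise of 5.88 ± 0.0968 (58.7-fold, adjusted p = 9.8e-13), and rose by 3.45 in lintless ovules.

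Secondary metabolism gave 3 rises among 8 probe sets (median 1.50). Acyl-transferases of the HXXXD type, which decorate phenolics and other metabolites, rose by 3.74 (AT5G01210.1) and 2.26 (AT3G29590.1). Beta-carotene hydroxylase 2, an enzyme of carotenoid synthesis, changed by 1.53. Glutathione transferases and P450s gave 3 rises among 5 (median 1.63). Cytochromes P450 of families 706 (AT4G12320.1) and 72 (AT3G14680.1) rose by 3.99 and 2.55. The glutathione transferase AT1G10370.1 rose by 1.63, near the threshold, and was not called without linted 0 dpa replicate 2 or 3, at 1.57 and 1.53. Glutathione S-transferase phi 12 stood at 0.55, 0.54 and 0.38 at 0 dpa and at -1.10, -1.19 and -0.38 at 10 dpa, a change of -1.38 that passed the fold only without linted 10 dpa replicate 3 (-1.64).

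Auxin transcripts gave 4 rises among 7 probe sets (median 2.39). Indole-3-acetic acid inducible 14, an Aux/IAA protein (homolog AT4G14550.1) that holds back auxin-responsive transcription, went from -1.55, -1.91 and -2.13 to 3.24, 3.41 and 3.29 on its leading probe set, a rise of 5.18 (36.2-fold). Its other probe set went from 0.05, -0.18 and -0.11 to 3.29, 3.16 and 3.23, a rise of 3.31. In lintless ovules the leading probe set rose by 4.18 and the other changed by -0.0050, so that the lines differed on the second (3.31) and were not called different on the first (1.00). Also in the list, an aluminium induced protein rose by 3.74 and an NAD(P)-linked oxidoreductase by 2.39.

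Ethylene transcripts gave 6 rises and 0 falls among 15 probe sets, with a median of 0.40 and a lintless median of -1.61. All 15 were listed as higher in lintless ovules at 0 dpa or lower there at 10 dpa. The gap between the medians therefore describes the selection. Ethylene-forming enzyme (AT1G05010.1), the oxidase of the last step of ethylene synthesis, went from -0.05, 0.06 and -0.00 to 3.90, 3.94 and 3.87, a rise of 3.90, and a second probe set rose by 3.71. Another probe set of this homolog stood at 0.50, 0.45 and 0.40 at 0 dpa and at -0.46, -0.41 and -0.39 at 10 dpa, a change of -0.87. The 2-oxoglutarate-dependent oxygenase AT1G12010.1 rose by 3.30. Gibberellin 3-oxidase 1, an enzyme that forms active gibberellin and was filed here by its oxygenase class, rose by 3.04.

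By the hormone families to which the study assigned transcripts, the counts of rises were 16 of 22 for auxin, 11 of 24 for ethylene, 8 of 13 for salicylic acid, 7 of 18 for abscisic acid and 6 of 11 for brassinosteroid. They were 4 of 7 for jasmonic acid, 3 of 7 for gibberellin and 3 of 3 for cytokinin. None of the 8 families held a called fall. Over all probe sets 2.94% rose, but among the 270 of the study's annotation 157 rose and 4 fell. Most of the family counts lie near or below that second share. These families overlap each other and the lists above. Over the 169 members of the 19 functional lists together, 102 rose and 2 fell (median 2.22).

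Transcription factors gave 22 rises and 0 falls among 40 probe sets, with a median of 2.26 and a lintless median of -0.72. The family counts and the names in the next sentences, other than NAC domain containing protein 47, were chosen after their values were seen. Of 5 NAC probe sets 4 rose, led by NAC domain containing protein 47 (AT3G04070.1), which went from -0.34, -0.44 and -0.32 to 4.48, 4.45 and 4.43, a rise of 4.82 (28.3-fold). NAC domain containing proteins 74 and 83 rose by 3.57 and 2.81. All 3 homeobox probe sets rose, homeobox protein 40 by 2.56 and 2.50 and BEL1-like homeodomain 1 by 2.38. In the WRKY class 4 of 7 rose, including WRKY DNA-binding proteins 70 (3.55) and 75 (3.36). This class also held probe sets named for kinases, among them those at 4.65 and 3.60 given above.

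The AP2-EREBP family, which includes the ethylene response factors, held 3 rises among 13 probe sets, with a median of 0.17 and a lintless median of -1.81. Those that rose were an ethylene-responsive element binding protein on 2 probe sets (3.39 and 2.76) and ethylene responsive element binding factor 2 (2.15). Factor 5 changed by 0.17 and 0.10, factor 1 by 0.20 and factor 4 by 0.014. In these members the linted level was nearly the same at both stages. In all 13 probe sets the linted change was more positive than the lintless change by the interaction test. All were listed on these arrays as higher in lintless ovules at the earlier stage or lower there at the later stage. Either listing favours a more positive interaction, so this count describes the selection and is not independent evidence.

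Only 4 falls carried a name, and none of them was a wall, hormone or transcription factor transcript by that name. The unknown protein AT1G64080.1 stood at 0.64, 0.35 and 0.32 at 0 dpa and at -2.46, -2.47 and -2.12 at 10 dpa, and fell by 2.79 ± 0.114 (6.90-fold, limma adjusted p = 1.1e-09). The Sec14p-like phosphatidylinositol transfer protein (AT1G01630.1), of a family that moves phospholipids between membranes, stood at 2.54, 2.43 and 2.64 at 0 dpa and at -0.22, 0.04 and -0.15 at 10 dpa, and fell by 2.64 ± 0.10 (6.25-fold, adjusted p = 5.2e-10). It changed by -0.071 in lintless ovules, so this fall differed between the lines by -2.57. The unknown protein fell in lintless ovules too, by 1.86.

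The ribonuclease H-like protein AT2G04420.1, a weak match, went from 3.14, 3.06 and 3.43 to 1.54, 1.32 and 1.40 and fell by 1.79. It changed by -0.21 in lintless ovules. The difference between the lines (-1.58, limma adjusted p = 7.7e-05) was just short of the fold of 3 and was not called. The Major facilitator superfamily protein AT5G62680.1, a membrane carrier, went from 2.09, 2.01 and 1.70 to 0.17, 0.22 and 0.10 and fell by 1.77. It changed by -1.32 in lintless ovules, with no called difference (-0.45). Both stages stayed above the series median in these 2 transcripts, and the size of their falls moved with the scaling: on the scale of the hybridization controls they were -1.46 and -1.43 and were not called, and after repeated quantile normalization they were -3.74 and -2.77.

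Photosynthesis transcripts did not move in linted ovules beyond the threshold. The rubisco small subunit changed by 0.28, light-harvesting complex subunit B1 by -0.14 and photosynthetic electron transfer B by -0.40, with 0 of 3 called by limma or by the unpaired test, 0 of 3 at an adjusted p of at most 0.01, and 1 of 3 at an unadjusted p under 0.05. The direction for light-harvesting complex subunit B1 flipped on the scale of the hybridization controls (0.20). In lintless ovules the first 2 fell (-2.62 and -3.25). All 3 were listed on these arrays as higher in lintless ovules at 0 dpa. That listing favours a fall in lintless ovules, so the contrast between the lines is not independent evidence.

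The comparison with lintless ovules asked which of these changes went with the stage in both lines. In lintless ovules 399 probe sets rose (1.83%) and 235 fell (1.08%). Of the 641 rises in linted ovules, 329 (51.3%) also rose in lintless ovules, 308 (48%) were not called there and 4 fell. Of the 202 falls, 96 (47.5%) also fell, 106 were not called and 0 rose. The rises had a median of 2.39 in linted and 1.63 in lintless ovules, and the falls -1.96 and -1.54.

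The difference itself was tested as the interaction of stage and line. On the deposited scale it was called for 335 probe sets with a more positive change in linted ovules (1.54%). It was called for 20 with a more negative one (0.0918%), or 355 (1.63%) in all. It shares the linted arrays with the stage comparison. The median difference over all probe sets was -0.059 on this scale. It was -0.028 after repeated quantile normalization and 0.53 on the scale of the hybridization controls. Among the 641 rises, 177 had a more positive change in linted ovules, 3 a more negative one, and 461 (71.9%) no called difference. The 3 were the XTH7 probe sets. Of the 177, 148 were not called in lintless ovules, 25 rose there less and 4 fell there. Among the 202 falls, 2 had a called difference, the Sec14p-like protein and a probe set with no name. Both counts moved with the scaling. For the rises it was 78 of 418 after repeated quantile normalization and 349 of 951 on the scale of the hybridization controls, against 180 of 641 here. For the falls it was 25 of 300 and 3 of 104, against 2 of 202 here, and 3 to 5 on leaving out 1 linted array (5 without linted 10 dpa replicate 1, 4 without replicate 2 or 3).

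**Figure D5:**
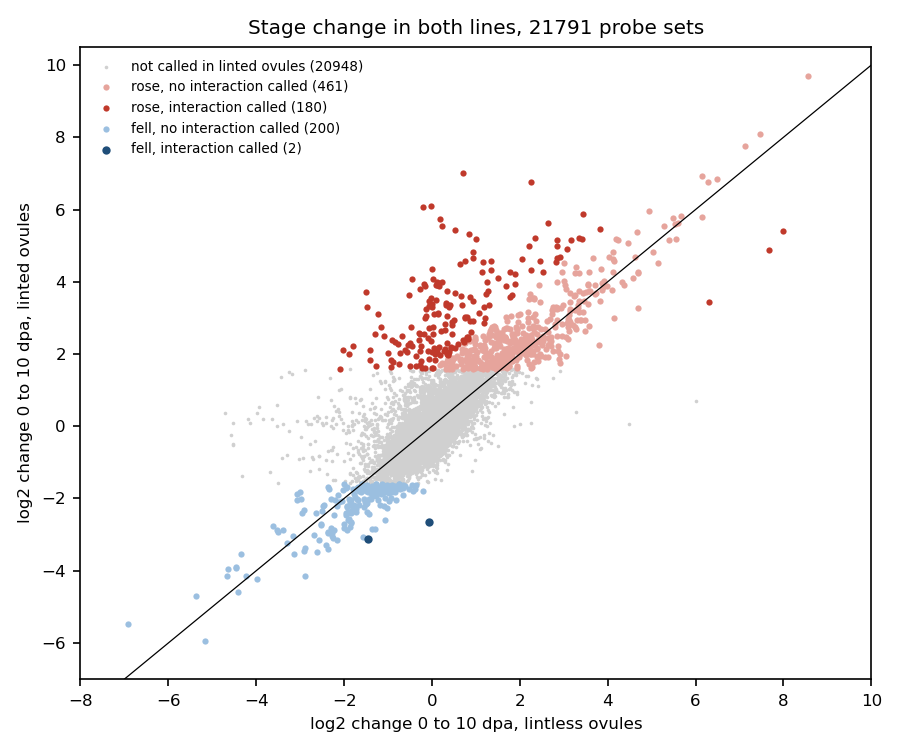
Change from 0 to 10 dpa (log2) in linted ovules (vertical axis) against lintless ovules (horizontal axis) for 21791 probe sets, coloured by call, with the line of equal change. Most rises (461) and falls (200) have no called difference between the lines, whereas 180 rises and 2 falls do, among them the XTH7 probe sets at the far right below the line.

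The cell wall list split between the lines: 9 of its 16 probe sets had a more positive change in linted ovules and 5 a more negative one. Every one of the 3 beta-galactosidases, 14 of the 15 ethylene and 39 of the 40 transcription factor probe sets had a more positive one. As these lists were drawn from transcripts that differed between the lines, these counts describe the lists and nothing beyond them.

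Known markers of fibre, looked up by name, moved mostly upward. The names covered only transcripts listed as differing between the lines on these arrays, so this direction is not independent evidence. Of 17 probe sets (13 homologs) 14 rose and 0 fell, with a median of 2.89, and their mean level ran from -0.99 to -0.90 on the 0 dpa arrays and from 2.15 to 2.23 on the 10 dpa arrays. The 3 that did not rise were expansin A1, FASCICLIN-like arabinogalactan 7 and XTH32. The interaction was more positive in linted ovules for 7 of the 17 and more negative for 5. Of the green tissue markers 0 of 2 were called by limma or by the unpaired test (1 of 2 had an unadjusted p under 0.05), with mean levels of -0.087 to 0.127 at 0 dpa and -0.038 to 0.177 at 10 dpa. Of the seed storage markers 1 was looked up with a value, the late embryogenesis abundant protein. The lipid-transfer proteins, all of which rose, were counted as fibre markers. Their homolog name also covers seed storage 2S albumin, so by name they could stand for either tissue. Fibre markers E6, RDL1, HOX3, MYB25 and sucrose synthase, and the seed proteins vicilin, legumin and oleosin, were not analysed here.

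Stress markers split. The salt tolerance zinc finger, a stress-induced transcription factor of Arabidopsis, went from -1.40, -1.57 and -1.52 to 2.06, 2.00 and 1.92 on one probe set (3.49) and rose by 2.82 on the other. WRKY40 changed by 0.23 and both probe sets of ethylene responsive element binding factor 5 by 0.17 and 0.10. The mean level of the 5 stress probe sets ran from -0.41 to -0.34 at 0 dpa and from 0.96 to 1.00 at 10 dpa. The part of seed or stress transcripts in the rises was not tested.

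The linted 10 dpa arrays had a wider spread over probe sets (SD 0.489 to 0.501) than the other 9 arrays (0.347 to 0.364). Between replicates, the median SD of a probe set was 0.114 at 0 dpa and 0.1 at 10 dpa. It was 0.139 and 0.0851 for the rises and 0.0949 and 0.109 for the falls, so the stage with the lower level had the larger spread in both. The difference between the 3′ and 5′ control probe sets, a sign of RNA length, moved between stages in opposite directions for 2 cotton controls. It moved by 0.374 for *G. hirsutum* actin and by -0.81 for its ubiquitin (each two-sided exact permutation p = 0.1, the smallest possible). Some controls that are not cotton transcripts reached the same p, among them Bs-dap (0.284), Ec-bioD (0.135) and PheX (-0.159), and others did not. The part of RNA length in these shifts was not tested.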

How the data were processed

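Ovule RNA of linted and lintless *G. arboreum* was hybridized to 12 1-colour Affymetrix cotton GeneChips. The authors summarised probe intensities by RMA (background correction, quantile normalization, median polish) in GeneSpring and deposited log2 values. Every one of the 21791 transcript probe sets had a median of 0 over the 12 arrays (within 0.001), a centring step not described in the sources used here. Levels between probe sets, and presence, are therefore unknown. The filter that left these and 98 control probe sets is not given in the sources used here. The number of arrays limits the precision.

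A model with 4 group means was fitted to all 12 arrays with limma 3.58.1 in R 4.3.3 (lmFit, eBayes), after a check on simulated data. Benjamini-Hochberg adjustment covered all 21791 probe sets. Stage changes and the interaction (linted minus lintless change) were called at an adjusted p of at most 0.01 and a fold of at least 3. Tables and figures were made with pandas 2.3.3 and matplotlib 3.10.9. Alternatives were the unpaired test of the methods, the 6 linted arrays alone, a replicate block, robust variance moderation, 3 other scalings and leaving out each linted array. Leaving out reporter and ribosomal RNA probe sets was chosen after seeing the data.

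Homolog names and functional bins came from the study's tables and were matched by probe set; a match with an E value above the limit of 1e-10 was called weak. Named were the 15 largest named rises and the 10 largest named falls (4 existed), up to 4 members of each list with the largest changes, and the 2 largest unnamed rises and falls. Members of interest that did not pass were chosen after their values were seen. Members and lists were chosen with earlier results of these data known. No sequences are shown.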

Additional observations from a re-analysis of the deposited data

Results flagged for a closer look

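Of the 19 leading named changes, 15 differed between the lines by the interaction test, the criterion for inclusion here, as did 80 of the 94 named probe sets, whose names come from lists of transcripts that differed between the lines on these arrays. The linted change exceeded the lintless one by 6.31 for the D-mannose binding lectin, 6.29 for peroxidase 2, 6.12 for expansin-like B1 and 5.30 for the leucine-rich repeat protein AT1G33590.1. The excess was 4.92 for the lipid-transfer protein AT3G22600.1 (weak match), 4.50 for asparagine synthase 1, 3.00 for nitrate transporter 1.5 and 2.87 for beta galactosidase 1. It was 2.78 for polygalacturonase inhibiting protein 1, 2.43 for xylem serine peptidase 1, 2.00 for beta-galactosidase 2, 1.86 for MLP-like protein 28 and 1.64 for the glycosyl hydrolase family 35 protein. The sign was opposite for XTH7 (-2.58), which rose more in lintless ovules, and for the Sec14p-like protein (-2.57), which fell in linted ovules and changed by -0.071 in lintless ones.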

How the results depend on the processing

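The counts of 641 rises and 202 falls were the same with the 6 linted arrays alone, robust moderation, the replicate block and without reporter and ribosomal RNA probe sets, and were 634 and 197 by the methods' unpaired test and 670 and 191 centred on array medians. Repeated quantile normalization gave 418 rises (300 falls), with 78 rises and 25 falls differing between the lines, against 180 and 2. Centring on hybridization controls gave 104 falls (951 rises), with 349 rises differing. At any fold the unpaired test called 5431 against 9020. Leaving out 1 linted array gave 635 to 657 rises, 195 to 211 falls, 175 to 190 rises with a difference between the lines and 3 to 5 falls with one (5 without linted 10 dpa replicate 1, 4 without replicate 2 or 3). The causes were not tested.

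Of the 94 named probe sets, 9 lost their call under repeated quantile normalization; on the scale of the hybridization controls 2 lost it, 5 gained it, and light-harvesting complex subunit B1 reversed (0.20). Under repeated quantile normalization the rises were 5 of 9 in the biotic stress list, 2 of 8 in the abiotic stress list and 2 of 7 in the lipid list. They were 2 of 10 in protein degradation and 1 of 5 among glutathione transferases and P450s, and the nitrogen list held 1 fall. On the scale of the hybridization controls the rises were 7 of 8 in the abiotic stress list and 5 of 8 in secondary metabolism. They were 4 of 4 in sugar and trehalose metabolism, and the transport list held 1 fall. Same-numbered linted arrays deviated together little (r = 0.00797, -0.0177 and 0.085). The numbers thus gave no sign of pairing the arrays, though 3 arrays per group cannot settle it. The replicate block left 641 rises and 202 falls. Probe sets whose signal is near background cannot be told from the others on centred values.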
